A study of Mus musculus with 4 samples.

Results

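Tbx2, Tbx3, Tbx15 and Tbx18, T-box genes that limb mesenchyme is known to express, were compared between forelimb and hindlimb. They were chosen by name, as limb T-box genes other than Tbx4 and Tbx5, and their counts were summed over the sequence tags that the deposited table gives to each Ensembl gene. All 4 had counts, out of 26252 genes and sequence clusters in the table. Limbs were dissected from embryos of the CD1 mouse strain at E14.5, and total RNA was taken from 2 forelimb and 2 hindlimb samples described as biological replicates. No sample carried a treatment or an altered allele, and the labels do not say how many embryos a sample held or whether a forelimb and a hindlimb sample shared embryos. A dissected limb holds skin, muscle, cartilage, nerve and blood beside mesenchyme, so fewer cells of a type and less RNA per cell cannot be told apart.

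T-box proteins bind DNA through the T-box domain and switch target genes on or off. Tbx2 and Tbx3 are closely related and act mainly as repressors. They mark the anterior and posterior margins of the limb bud, and loss of TBX3 function in people causes ulnar-mammary syndrome, which affects the posterior side of the upper limb. Tbx15 and Tbx18 belong to another branch of the family and can recruit Groucho (Tle) corepressors. Tbx15 is needed for the shoulder blade and for dermal pigment patterning, and Tbx18 is known for its roles in somites, the epicardium, the ureter and proximal limb mesenchyme.

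The assay was DGE-SAGE, a tag-counting form of digital gene expression. The enzyme NlaIII cuts cDNA at the letters CATG, and the tag of a transcript is the run of 17 bases after its most 3′ site. In principle a transcript gives 1 tag, so counts are not scaled by transcript length, although a tag's base composition can change how well it is recovered. NlaIII sites are numbered here from the 3′ end of the GENCODE M21 transcript that holds most of the gene's counts, so that site 1 is the last one. The tags below carry the results that follow, and are shown with the NlaIII site in capitals, the GRCm38 position and the strand of the gene.
Tbx18 site 1, chr9:87702869-87702889, minus strand: CATGcattgttgcattgttaa
Tbx18 site 2, chr9:87703061-87703081, minus strand: CATGgcacatttccctttttg
Tbx18 site 3, chr9:87703169-87703189, minus strand: CATGgtgttattaacttgaca
Tbx18 site 10, chr9:87704970-87704990, minus strand: CATGgactatgtttatccaga
Tbx18 site 11, chr9:87705031-87705051, minus strand: CATGtagtatactgaagcctt
Tbx3 site 1, chr5:119684552-119684572, plus strand: CATGaaaggcaaaacaaaaca
Tbx3 site 2, chr5:119684479-119684499, plus strand: CATGtgaggttttcattgttc
Tbx3 site 5, chr5:119683738-119683758, plus strand: CATGttacagttttctgggtt
Tbx2 site 2, chr11:85841737-85841757, plus strand: CATGagcatctatattgtaca
Tbx2 site 3, chr11:85841474-85841494, plus strand: CATGtccgcttggtcttccca
Tbx2 site 5, chr11:85838313-85838333, plus strand: CATGggtcatctgctagcctc
Tbx15 site 1, chr3:99353815-99353835, plus strand: CATGcaggagaaaccctgaga
Tbx15 site 2, chr3:99353746-99353766, plus strand: CATGgacgacaggcctggcct
Tbx15 site 8, chr3:99352702-99352722, plus strand: CATGtgccttgggaaaatagg
The Tbx18 and Tbx3 tags in this set are rich in A and T, whereas Tbx15 site 2 and Tbx2 sites 3 and 5 are rich in G and C.

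Libraries held from 1829647 (forelimb replicate 2) to 5325279 tags (hindlimb replicate 1), so 1 count was worth 0.224 to 0.621 CPM, counts scaled to a common library size. Library sizes for CPM were adjusted by the trimmed mean of M-values. The mean G and C content of a counted tag was 40.6% and 40.2% in the forelimb libraries, against 46.3% and 50.4% in the hindlimb libraries. Because base composition moved with limb type, differences of the 4 genes and of the named genes of their pathways are also given with an offset for tag sequence, fitted on contrasts of tags within a gene only. Tbx4 and Tbx5, which mark hindlimb and forelimb, matched the labels: Tbx4 counts were 34 and 5 in forelimb and 193 and 227 in hindlimb, and Tbx5 counts were 72 and 24 in forelimb and 4 and 6 in hindlimb. The summed level of 10 limb mesenchyme markers was 2300 to 2430 CPM in forelimb and 2190 to 2340 CPM in hindlimb. Summed skeletal muscle markers were at 2270 to 2730 CPM in forelimb and 876 to 959 CPM in hindlimb. Of these 6 genes Acta1, Myh3, Myh8 and Tnnc2 were higher in forelimb, beside 7.08% of all genes tested. Acta1 alone was called under the offset, and Myod1 (0.80, adjusted p = 0.181) and Myog (-0.32, adjusted p = 0.535) did not pass without it.

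Tbx18 and Tbx3 were higher in forelimb than in hindlimb, and Tbx2 and Tbx15 did not pass the test. With edgeR's quasi-likelihood test and Benjamini-Hochberg adjustment, 2 of the 4 genes had an adjusted p under 0.05, both higher in forelimb. Of all 13718 genes and clusters tested 16.7% were called, made up of 7.08% higher in forelimb and 9.58% higher in hindlimb. The libraries of the limb types did not overlap in CPM for Tbx2, Tbx3 and Tbx18 by the deposited assignment, which was also so for 62.8% of all genes tested, and forelimb was on top for 31.4% of them all. With the tags matched to GENCODE M21, the Tbx2 libraries overlapped, at 17.2 and 26.1 CPM in forelimb and 23.7 and 54.5 CPM in hindlimb. With the tag-sequence offset 0 of the 4 genes were called by edgeR, against 0.19% of all genes. Without it 3 of the 4 had an unadjusted p under 0.05, beside 4451 of all 13718 genes and clusters tested. DESeq2, run without the offset, called 2 of the 4, beside 2076 of all 23162 genes and clusters with a count.

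**Figure D1:**
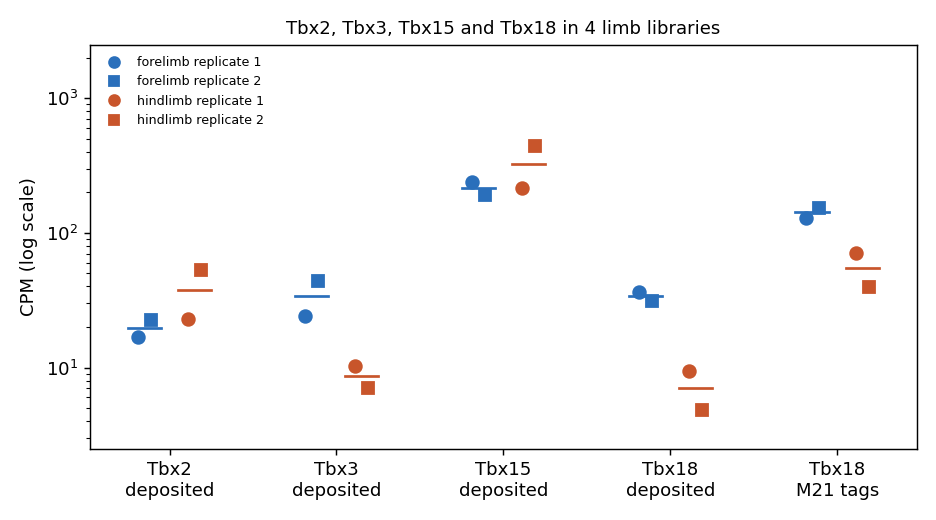
Level of each gene in the 4 libraries, in CPM on a log axis, with the mean of each limb type as a bar; the last column sums all Tbx18 tags found with GENCODE M21. Both forelimb points lie above both hindlimb points for Tbx3 and Tbx18, the points of Tbx15 overlap, and hindlimb replicate 2 is the highest point for Tbx2 and Tbx15.

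Tbx18 (ENSMUSG00000032419) lies on the minus strand at chr9:87702800-87731260 in GRCm38. Its deposited tags held 142 and 50 counts in forelimb and 42 and 19 counts in hindlimb. This was 36.4 and 31.1 CPM in forelimb and 9.39 and 4.82 CPM in hindlimb. The limb types did not overlap, and the forelimb mean of 33.7 ± 3.75 CPM (SD, n = 2) stood over a hindlimb mean of 7.10 ± 3.23 CPM (SD, n = 2). The log2 difference, hindlimb over forelimb, was -2.24 ± 0.46 (SE), with an adjusted p of 0.00435. The offset for tag sequence left it at -1.73 ± 0.39 (SE), at an adjusted p of 0.0912.

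Most Tbx18 tags carried no gene in the deposited table. When every tag in the table was compared with the sense strand of GENCODE M21 transcripts, 15 further tags matched Tbx18 and no other gene. They held 999 of the 1252 Tbx18 counts, or 79.8% (95% Wilson interval 77.5% to 81.9%). Their counts were 388 and 198 in forelimb and 277 and 136 in hindlimb. Among them was site 1 itself, 90 bases from the end of the transcript, which alone held 44.4% of all Tbx18 counts. For Tbx2 and Tbx15 such unassigned tags held 4.63% and 2.65% of the counts, and for Tbx3 there were 0 of 240 counts (95% Wilson interval up to 1.58%).

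Under the M21 assignment, Tbx18 had 509 and 246 counts in forelimb and 318 and 155 in hindlimb. This sum holds the 15 further tags but not 4 deposited tags, with 24 counts, that matched no M21 transcript. The levels were 130 and 153 CPM in forelimb and 71.1 and 39.3 CPM in hindlimb, so the limb types again did not overlap. The log2 difference was -1.33 ± 0.34 (SE) and smaller than that of the deposited tags, with an adjusted p of 0.0124. Over the 12548 genes tested by the same assignment 16.7% were called, and 6.78% were called and higher in forelimb. The call did not hold without forelimb replicate 2 (-1.23, adjusted p = 0.0832), without hindlimb replicate 2 (-0.97, adjusted p = 0.0832) or with the tag-sequence offset (-1.04 ± 0.25, adjusted p = 0.0841).

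Single tags were tested under the M21 assignment unless stated, and the Tbx18 tags were read one by one. Site 1, the most abundant, had 188 and 103 counts in forelimb and 179 and 86 in hindlimb. Site 2 had 103 and 38 counts in forelimb and 50 and 14 in hindlimb. Site 3 had 48 and 25 counts in forelimb and 8 and 17 in hindlimb. Scaled to library size, both forelimb libraries were above both hindlimb libraries at each of these sites.

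Further upstream, site 10, the most abundant of the tags assigned by the authors, had 86 and 25 counts in forelimb and 28 and 12 in hindlimb. Site 11 had 33 and 14 counts in forelimb and 11 and 7 in hindlimb. Both sites again had the forelimb libraries on top. The log2 differences of single tags ran from -2.16 at site 3 to -0.63 at site 4 (9 and 8 counts in forelimb, 13 and 6 in hindlimb). All 7 tags tested had a negative log2 difference, with adjusted p-values of 0.0835 to 0.714. By edgeR 0 of these 7 were called and 4 had an unadjusted p under 0.05. DESeq2 called 0 of the deposited Tbx18 tags. Over all 36753 tags tested under the M21 assignment edgeR called 4.58%, and 10090 had an unadjusted p under 0.05. The offset left 6 of the 7 below 0, with site 4 at 0.75.

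Over the 4 genes 42 tags had at least 10 counts, of which 12 had both forelimb libraries on top, 9 both hindlimb libraries, and 21 overlapped. So 21 did not overlap, beside 62% of all tags tested. Of the 10 such Tbx18 tags, 8 had both forelimb libraries above both hindlimb libraries, which was so for 31.5% of all tags tested. Tags were tested only if they passed edgeR's filter, which kept 20 of the 42 and 7 of the 10. The shares of all tags thus come from a set chosen by another rule. The Tbx18 tags share 1 gene and 4 libraries and are not independent of each other. Site 1 held 35.5% and 41.5% of the Tbx18 counts in forelimb and 56.1% and 55.5% in hindlimb, while site 10 held 16.2% and 10.1% in forelimb and 8.78% and 7.74% in hindlimb. The shares of site 1 did not overlap between limb types. A test of unequal change among the tags of a gene gave an adjusted p of 0.748 for Tbx18, beside 9.05% of 8319 genes called. Of the deposited Tbx18 tags 4, with 24 counts in all, matched no M21 transcript, and 11 of those counts came from 1 tag in forelimb replicate 1 alone.

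All the M21-matched Tbx18 tags named here lie in the last of its 8 exons, in a 3′ UTR of 2424 bases. The poly(A) signal letters AATAAA occur 2 times and ATTAAA 1 time between sites 10 and 9, on the sense strand, in a window of 774 bases. Windows of the same length and distance from the end held AATAAA in 22.5% and ATTAAA in 19.6% of protein-coding transcripts long enough to have one. Such a match is a description of the letters only.

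**Figure D2:**
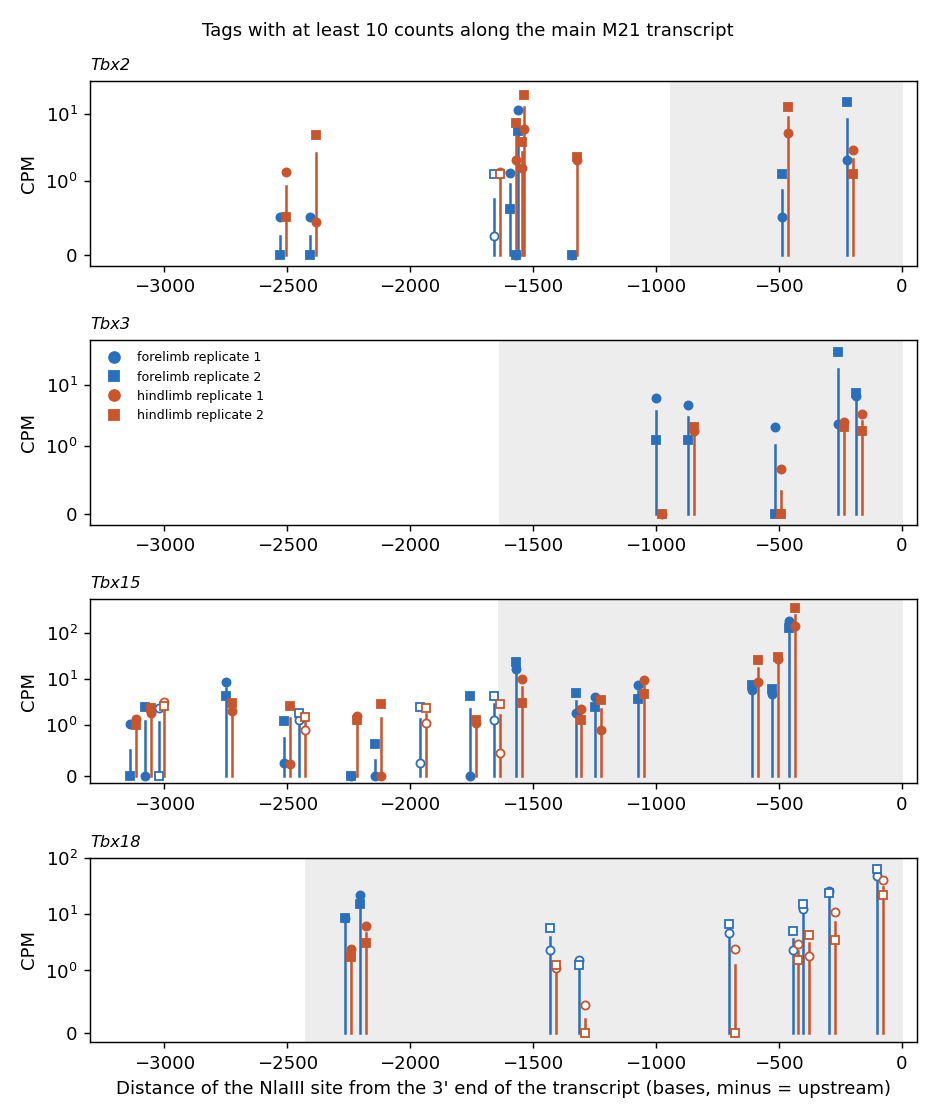
CPM of each tag with at least 10 counts (points, one per library; stems, limb type means) by distance of its NlaIII site from the 3′ end of the main transcript, with the 3′ UTR shaded and a log axis above 1 CPM. Open points are tags with no gene in the deposited table, which for Tbx18 include the last site with 44.4% of its counts; forelimb and hindlimb points are drawn side by side.

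Tbx3 (ENSMUSG00000018604) lies on the plus strand at chr5:119670669-119684724. Its counts were 95 and 71 in forelimb and 46 and 28 in hindlimb. In CPM this was 24.3 and 44.1 in forelimb and 10.3 and 7.10 in hindlimb. Both forelimb libraries stood above both hindlimb libraries, and they differed from each other by more than the hindlimb libraries did. The mean was 34.2 ± 14 CPM in forelimb and 8.69 ± 2.25 CPM in hindlimb (SD, n = 2 each).

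The log2 difference for Tbx3 was -1.95 ± 0.46 (SE), with an adjusted p of 0.0091. Without forelimb replicate 2 it was -1.48 ± 0.55 and the call was lost, at an adjusted p of 0.092. Under the offset for tag sequence it was -1.21 ± 0.40 (SE), at an adjusted p of 0.308. Read from the last NlaIII site alone it was -1.48, at an adjusted p of 0.23, where 22.5% of 10212 genes were called.

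The Tbx3 tags gave an uneven picture across the forelimb libraries. Site 2 had 9 and 54 counts in forelimb and 11 and 8 in hindlimb, and so was high in forelimb replicate 2 alone. It held 76.1% of the Tbx3 counts in that library (95% Wilson interval 65.0% to 84.5%) but 9.47% in forelimb replicate 1 (5.06% to 17%). In the hindlimb libraries its share was 23.9% and 28.6%. By the deposited assignment DESeq2 called this tag, whereas edgeR gave it an adjusted p of 0.111, with 6.22% of 37805 tags called; under the M21 assignment its adjusted p was 0.123.

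Site 1 of Tbx3, 173 bases from the transcript end, had 26 and 12 counts in forelimb and 15 and 7 in hindlimb. Its CPM was 6.66 and 7.46 in forelimb and 3.35 and 1.77 in hindlimb, so forelimb was above hindlimb at a log2 difference of -1.42 ± 0.77 (SE) that did not pass the test (adjusted p = 0.261). Site 5 was seen in forelimb alone, with 24 and 2 counts against 0 and 0. Set against a floor of 3 counts over both hindlimb libraries, its ratio of forelimb to hindlimb was 13.2. This tag reached 10 counts through forelimb alone and was not tested by edgeR, so the ratio describes the counts only. Nearly all of the site 5 counts came from forelimb replicate 1. Sites 4 and 3 had 18 and 2, and 8 and 0, counts in forelimb, against 8 and 8, and 3 and 0, in hindlimb. The test of unequal change among Tbx3 tags gave an adjusted p of 0.7, with 10.4% of 8694 genes called, and all 5 tags with at least 10 counts lie in the 3′ UTR.

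Tbx2 (ENSMUSG00000000093) lies on the plus strand at chr11:85832551-85841948. Its counts were 66 and 36 in forelimb and 102 and 208 in hindlimb. The levels of 16.9 and 22.4 CPM in forelimb and 22.8 and 52.7 CPM in hindlimb show that hindlimb replicate 2 was high and that hindlimb replicate 1 lay next to forelimb replicate 2. The log2 difference was 0.96 ± 0.44 (SE) and did not pass the test, at an adjusted p of 0.14 and an unadjusted p of 0.043. Without hindlimb replicate 1 it was 1.44, and without hindlimb replicate 2 it was 0.25. Under the offset it was 0.07 ± 0.35 (SE). With 1 hindlimb library left, whether Tbx2 was called depended on which library was kept.

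The Tbx2 tags did not share a direction. Site 5, in the coding sequence of exon 6, was the most abundant, with 44 and 9 counts in forelimb and 27 and 77 in hindlimb, and its limb types overlapped. Site 3, in the 3′ UTR, had 2 and 2 counts in forelimb and 23 and 50 in hindlimb. Its share of the Tbx2 counts was 2.99% and 4.76% in forelimb and 21.3% and 23.3% in hindlimb, and its log2 difference of 3.46 ± 0.96 (SE) had an adjusted p of 0.0657. Site 2, also in the 3′ UTR and of 29.4% G and C, had 8 and 24 counts in forelimb and 13 and 5 in hindlimb.

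In forelimb replicate 2 this site 2 held 57.1% of the Tbx2 counts, against 11.9% in forelimb replicate 1. Under the offset, the log2 difference was 1.18 at site 3 and -0.33 at site 2. The tags of sites 6 and 4 had 22 and 18 counts in hindlimb and none in forelimb. Set against the same floor, their ratios of hindlimb to forelimb were 4.8 and 3.93. These tags reached 10 counts through hindlimb alone and were not tested by edgeR, so the ratios describe the counts only. Tags of sites 5 and 6 overlap each other in sequence. Of the 9 Tbx2 tags with at least 10 counts, 5 had both hindlimb libraries above both forelimb libraries, beside 30.5% of all tags tested, and 0 the reverse. All 5 had fewer than 10 counts over the forelimb libraries and so reached 10 counts through hindlimb. The 5 of 9 thus describes the counts only. Only 3 of the 9 passed edgeR's filter, as all tags behind the 30.5% did. Sites 4, 6, 7 and 8, each with hindlimb on top, did not pass it.

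The last NlaIII site of Tbx2 lies 12 bases from the transcript end, too close for a full tag. So Tbx2 could be read only from sites further upstream, and it has no value at the last site. The test of unequal change among Tbx2 tags gave an adjusted p of 0.176 and an unadjusted p of 0.0503.

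Tbx15 (ENSMUSG00000027868) lies on the plus strand at chr3:99240381-99354259 and had the most counts of the 4 genes. Its counts were 930 and 308 in forelimb and 955 and 1733 in hindlimb. At 238 and 191 CPM in forelimb and 214 and 439 CPM in hindlimb, the limb types overlapped, and hindlimb replicate 2 alone was high. The log2 difference was 0.60 ± 0.35 (SE), at an adjusted p of 0.251. Without hindlimb replicate 1 it was 1.02, and without hindlimb replicate 2 it was 0.002. Under the offset it was -0.043 ± 0.24 (SE). As for Tbx2, whether Tbx15 was called with 1 hindlimb library left depended on which library was kept.

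Site 1 of Tbx15, 445 bases from the end of the transcript, held 73.8% of the gene's counts (95% Wilson interval 72.4% to 75.1%). It had 720 and 206 counts in forelimb and 650 and 1399 in hindlimb, which repeats the order of the gene as a whole. Site 2, 514 bases from the end and of 70.6% G and C, had 18 and 10 counts in forelimb and 123 and 120 in hindlimb. It rose from 4.61 and 6.21 CPM to 27.5 and 30.4 CPM, with no overlap, a log2 difference of 2.46 ± 0.54 (SE) and an adjusted p of 0.0421. It alone was called of the 20 tags of the 4 genes tested by edgeR, beside 4.58% of all 36753 tags tested. Under the offset the log2 difference of site 2 was 0.74, at an adjusted p of 0.72. By the deposited assignment (adjusted p = 0.0357) its call was lost without forelimb replicate 1 (0.12), with the replicate number as a block (0.081), with library totals alone (0.055) and with the GC offset (0.543).

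Site 8 of Tbx15 went the other way, with 66 and 38 counts in forelimb and 45 and 12 in hindlimb, a log2 difference of -1.59 ± 0.66 (SE) and an adjusted p of 0.158. Site 20, in the coding sequence of exon 5, had 34 and 7 counts in forelimb and 9 and 12 in hindlimb, and site 3 had 23 and 12 counts in forelimb and 38 and 104 in hindlimb. Both sites were without overlap in CPM, site 20 with forelimb and site 3 with hindlimb on top. Of the 18 Tbx15 tags with at least 10 counts, 12 overlapped between limb types, 4 had hindlimb and 2 forelimb on top. Of all tags tested 62% did not overlap, with hindlimb on top for 30.5% and forelimb for 31.5%. Only 8 of the 18 passed edgeR's filter, as all tags behind these shares did. The test of unequal change among Tbx15 tags gave an adjusted p of 0.104, beside 10.4% of 8694 genes called.

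The log2 differences of the members' tags ran with tag base composition. Over the 20 tags tested, Pearson's r between the G and C content of a tag and its log2 difference was 0.79, and 0.52 with the tag-sequence offset. These points share 4 genes and 4 libraries, so the values are given as a description. Within Tbx15 (8 tags) r was 0.76 and with the offset 0.63. Within Tbx18 (7 tags of 29.4% to 41.2% G and C) it was -0.48 and with the offset -0.62. Averaged over counts, G and C made up 32.9% of the Tbx18 tags, 38.4% of Tbx3, 53.0% of Tbx15 and 58.8% of Tbx2, so that the genes higher in forelimb were also those with the fewest G and C.

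**Figure D3:**
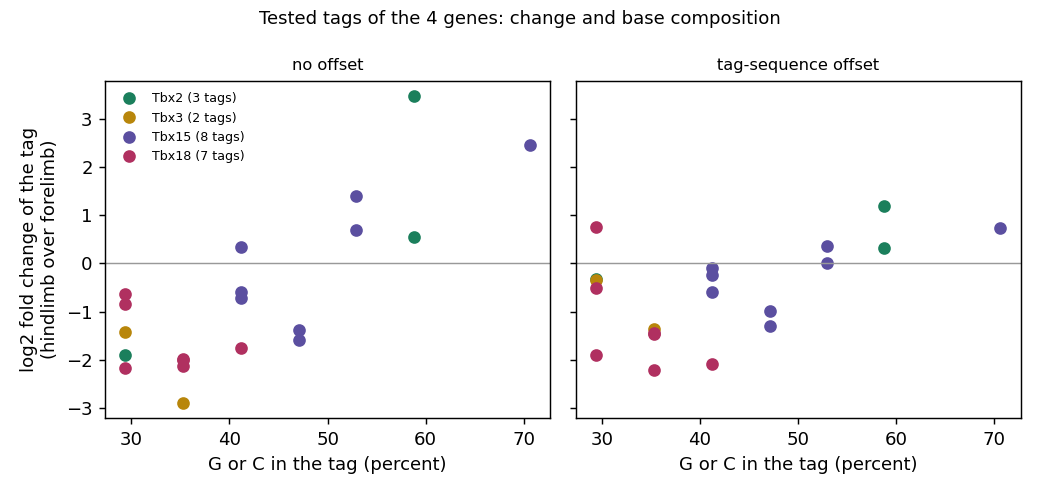
Log2 difference of each tested tag, hindlimb over forelimb, against the percent of G and C in the tag, without (left) and with (right) the tag-sequence offset; colours mark the genes and some points coincide. Without the offset the tags run from -2.89 (Tbx3 site 2) to 3.46 (Tbx2 site 3), and with it from -2.20 to 1.18.

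**Figure D4:**
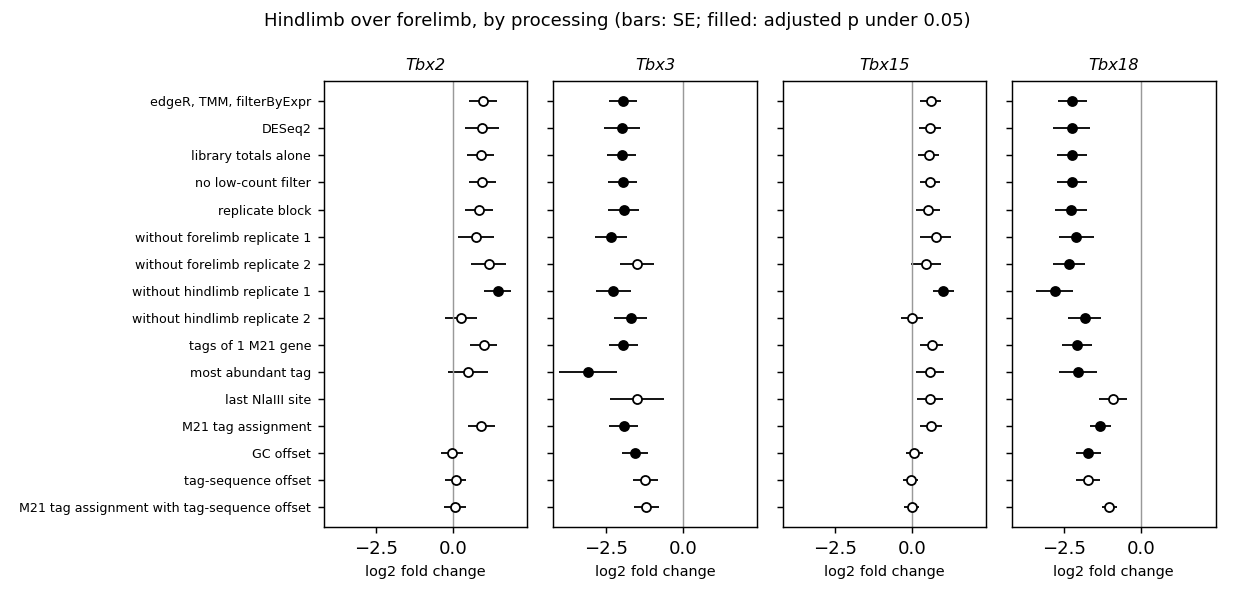
Log2 difference of each gene, hindlimb over forelimb, with its standard error under 16 ways of processing; filled points have an adjusted p under 0.05. Tbx18 and Tbx3 lie to the left of 0 throughout and lose their call with the tag-sequence offset, while Tbx2 and Tbx15 move to about 0.

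The rest of the T-box family gave a frame for these values. Of 13 other T-box genes 7 had a count and 4 were tested. Tbx4, a hindlimb identity factor, was higher in hindlimb by 2.95 ± 0.47 (log2, SE; adjusted p = 0.00101), and Tbx5, its forelimb counterpart, was lower by -3.77 ± 0.69 (adjusted p = 0.00246). Both kept their call with the tag-sequence offset, at 2.92 and -4.01. Tbx1, from the branch of Tbx15 and Tbx18, had 40 and 21 counts in forelimb and 87 and 123 in hindlimb, with a log2 difference of 1.14 that did not pass the test (adjusted p = 0.0915) and was -0.42 with the offset.

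Mga, which pairs a T-box with another DNA-binding domain, had 328 and 88 counts in forelimb and 210 and 100 in hindlimb, a log2 difference of -0.95 (adjusted p = 0.0963) that was -0.27 with the offset. Tbx6 had 2 and 2 counts in forelimb and 7 and 18 in hindlimb, Tbr1 had 4 counts in hindlimb replicate 2 alone, and T had 1. Eomes, Tbx10, Tbx19, Tbx20, Tbx21 and Tbx22 were listed at 0 in all 4 libraries. Among the T-box genes with counts, Tbx15 stood first in every library under the M21 assignment and Tbx18 second in all but hindlimb replicate 2. In that library Tbx18 (39.3 CPM) lay below Tbx4 (57.6 CPM) and Tbx2 (54.5 CPM). The forelimb values of Tbx15, Tbx18 and Mga did not overlap, whereas in hindlimb Tbx18 (39.3 to 71.1 CPM), Mga (38.5 to 60.4 CPM) and Tbx2 (23.7 to 54.5 CPM) overlapped.

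**Figure D5:**
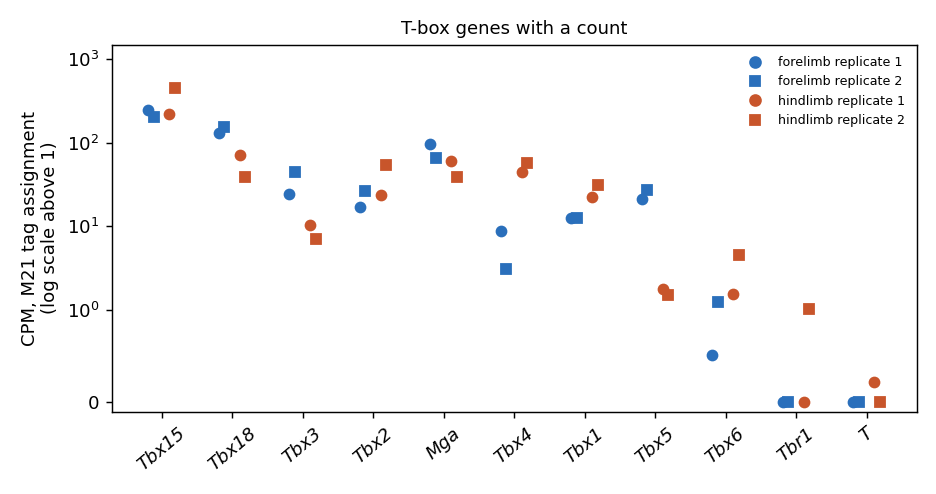
CPM of the 11 T-box genes with a count, by library, under the M21 tag assignment, on an axis that is logarithmic above 1 CPM. Tbx15 is the highest gene in each library, and Tbx4 and Tbx5 show the widest gaps between limb types.

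Genes that work with these factors were read from lists. Of 11 corepressors and cofactors 10 were tested. By edgeR 0 were called, beside 16.7% of all genes tested. An unadjusted p under 0.05 was found for 3 (4451 of 13718 over all genes tested), and DESeq2 called 1. The most abundant were Ncor1, a nuclear receptor corepressor (-0.49, adjusted p = 0.286, and 0.26 with the offset), and Hdac2, a histone deacetylase (-0.89, adjusted p = 0.0809, and -0.73 with the offset). The median log2 difference of the 10 tested corepressors and cofactors was -0.37, beside -0.03 over all genes tested. Hdac1 was listed at 0 and had 26 counts under the M21 assignment.

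Of 14 limb signals and targets around Tbx2 and Tbx3, 12 were tested. By the deposited assignment 2 were higher in hindlimb, beside 9.58% of all genes tested, and the median was 0.42. This list depends on the assignment. Under M21, Grem1 went from 41 to 147 counts and was called higher in forelimb (-1.56, adjusted p = 0.0476, and -0.73 with the offset). Ptch1 went from 95 to 1105 counts (-0.96, adjusted p = 0.0635), while Hand2 stayed higher in hindlimb (1.69, adjusted p = 0.0056). Hand2, a posterior limb regulator, had 244 and 82 counts in forelimb and 496 and 1115 in hindlimb, a log2 difference of 1.79 ± 0.40 (SE; adjusted p = 0.00672). Cdkn1a, a cell cycle inhibitor that Tbx2 and Tbx3 can repress, had 26 and 9 counts in forelimb and 88 and 68 in hindlimb, a difference of 1.57 ± 0.51 (adjusted p = 0.0431). Under the offset these were 1.01 and 0.16, and neither was called. Hand2 was at 0.97 (adjusted p = 0.0872) without hindlimb replicate 2, at 1.64 (0.0626) without forelimb replicate 2 and at 0.35 (0.74) when read from its last site. The Cdkn1a call was lost without any 1 of the 4 libraries (adjusted p 0.0952 to 0.137), and with DESeq2 (0.109), library totals alone (0.0517), the replicate block (0.0519), the last site (0.0864) and the M21 assignment (0.0707).

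Of 10 girdle and proximal limb patterning genes 8 were tested and 1 was called in each direction, with a median of 0.14. Over all genes tested 9.58% were called higher in hindlimb and 7.08% higher in forelimb. Pbx2, a homeodomain partner of Hox proteins, was higher in hindlimb (1.09 ± 0.34, adjusted p = 0.0383), and was at -0.05 with the offset. Meis1, a marker of the proximal limb, was lower (-1.86 ± 0.49, adjusted p = 0.0158), and was at -0.75 with the offset. Pbx2 no longer passed when forelimb replicate 1 (adjusted p = 0.323), forelimb replicate 2 (0.121) or hindlimb replicate 2 (0.15) was left out, with library totals alone (0.051) and with its most abundant tag (0.466). Meis1 no longer passed when forelimb replicate 2 (-1.42, adjusted p = 0.129) or hindlimb replicate 2 (-1.49, adjusted p = 0.0741) was left out. Alx1 was listed at 0 and had 59 counts under the M21 assignment.

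Markers of other tissues that express these T-box genes were measured beside them. Heart and epicardium markers summed to 8.45 to 9.32 CPM in forelimb and 13.6 to 26.1 CPM in hindlimb. Most of this sum was Upk1b alone, at 8.45 and 6.21 CPM in forelimb and 13.2 and 25.1 CPM in hindlimb. Nppa and Nkx2-5 were at 0 and the epicardial markers Wt1 and Upk3b had 1 count each, and 0 of 1 marker tested was called (unadjusted p under 0.05 for 1, Upk1b; DESeq2 called 0). Dermis markers summed to 1020 to 1300 CPM in forelimb and 1150 to 1320 CPM in hindlimb. Twist2 and Enpp2, 2 of 8, were higher in hindlimb, beside 9.58% of all genes tested. Epidermis and mammary bud markers summed to 691 to 697 CPM in forelimb and 761 to 914 CPM in hindlimb. Krt14, Krt10 and Trp63 were called of 6 tested, 1 higher in hindlimb and 2 higher in forelimb, beside 16.7% of all genes called. Under the M21 assignment Trp63 did not pass (adjusted p = 0.0505).

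Neural markers summed to 68.6 to 93.2 CPM in forelimb and 29.9 to 40 CPM in hindlimb, with Neurod1 and Sox1 at 0 and Stmn2, higher in forelimb, called of 3 tested. Much of this sum was Tubb3, whose 439 deposited counts became 17 under the M21 assignment, with 0 and 1 in forelimb and 7 and 9 in hindlimb. So the neural sum depends on the assignment of tags. Of the 10 limb mesenchyme markers Prrx2, Twist2 and Msx1 were higher in hindlimb. Over all genes tested 9.58% were called higher in hindlimb and 7.08% higher in forelimb. Under the M21 assignment Lmx1b went from 111 to 441 counts and was also called higher in hindlimb (1.54, adjusted p = 0.0134). So was Osr1 (1.11, adjusted p = 0.0476), and with the offset Lmx1b was at 0.49 and Osr1 at 0.13. Cartilage markers summed to 1900 to 2180 CPM in forelimb and 2860 to 3970 CPM in hindlimb, with Col2a1 and Matn1 called in opposite directions. Erythroid markers summed to 9720 to 12200 CPM in forelimb and 7290 to 8630 CPM in hindlimb, with Hba-a2 and Hbb-bs called in opposite directions of 3 tested. These globin genes have near-identical copies and their values are uncertain: under the M21 assignment Hbb-bs had 0 counts and Hba-a2 had 2, while Hba-a1, listed at 0 before, had 799 and 294 counts in forelimb and 2758 and 2733 in hindlimb. Of the marker genes called in these lists, Acta1 alone kept its call under the tag-sequence offset. The part of these cell types in the T-box values was not tested.

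For each of the 4 genes the 3 genes nearest in pattern were found by the Euclidean distance of centred log2 CPM over the 4 libraries, among 10648 named genes with a mean of at least 5 CPM. Nearest to Tbx18 were Alkbh7, Srgn and Arfip1, at distances of 0.0797 to 0.244. Nearest to Tbx3 were Cenpw, Atp5l and Flnc (0.0161 to 0.173). Nearest to Tbx2 were Ldlrad3, Zwilch and Elac1 (0.0787 to 0.115), and nearest to Tbx15 were Vdac2, Sfxn5 and Htra2 (0.0412 to 0.0774). With 4 libraries many genes share a pattern, so the distance is a description only.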

How the data were processed

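The deposited table holds 733961 tags of 17 bases, each with raw counts per library and, for some, a gene or UniGene cluster. The submitters' processing notes list Bowtie and mm9; its settings and the annotation are not given. Tags with no gene or cluster held 14.8% to 18.7% of each library's deposited counts and stayed out of the main test. The members and gene lists were chosen with earlier results of these data known.

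Counts were summed per gene and tested with edgeR 4.0.16 (quasi-likelihood, TMM, filterByExpr, adjusted p under 0.05 over all genes) in R 4.3.3, also per tag and, with diffSpliceDGE, for tag usage within a gene. Library sizes limit precision: 3 counts, used as the floor, are 0.671 to 1.86 CPM. Intervals and floors cover counting error only. Tags were matched to GENCODE M21 transcripts (GRCm38), which placed 98.0% of the counts of uniquely matching assigned tags in the deposited gene. The tag-sequence offset was a model of base by position, first dinucleotide, G and C and purine number, fitted on 52246 tags of 10820 genes within genes, where it explained 43.4% of the variance. For tag usage the counts were divided by it and rounded. Scripts were tested on simulated data. Alternatives were DESeq2 1.42.0, library totals alone, no low-count filter, each library left out, a replicate block, offsets, single tags and, chosen after seeing the data, the M21 tag assignment and a crossed block. CPM under both assignments use the library sizes of the main test. Named genes were the 4 members, every T-box gene with a count, called genes of each list (the 2 most abundant where none was called), tags with at least 10 counts, and the 3 nearest patterns per member.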

Additional observations from a re-analysis of the deposited data

Results flagged for a closer look

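Tags with no gene in the deposited table, which the main comparison does not use, held counts of 3 of the 4 genes. For Tbx18 they held 999 counts, for Tbx15 107 counts and for Tbx2 20 counts. The Tbx18 counts were 388 and 198 in forelimb and 277 and 136 in hindlimb, and the last NlaIII site of the transcript was among them. Tbx15 had 23 and 18 such counts in forelimb and 30 and 36 in hindlimb, and Tbx2 had 1 and 6 in forelimb and 6 and 7 in hindlimb.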

How the results depend on the processing

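The number of genes called was 2285 and fell to 26 with the tag-sequence offset, 828 with the GC offset and 33 with the M21 assignment and offset, and ranged from 950 to 3900 with a library left out. The number of tags called was 2350 and was 927 with library totals alone, 3707 with no low-count filter, 3859 with DESeq2, 11 with the tag-sequence offset, 39 with the GC offset, 6 with the M21 assignment and offset, and 2117 to 10287 with a library left out. Genes called for tag usage numbered 906, and 322 with no filter, 22 with the tag-sequence offset, 338 with the GC offset, 11 with the M21 assignment and offset, and 12 to 2140 with a library left out. Tbx3 lost its call with the tag-sequence offset (-1.21), at the last site (-1.48) and with the M21 assignment and offset (-1.18), and ranged from -2.33 to -1.48 with a library left out. Tbx18 lost its call with the tag-sequence offset (-1.73), at the last site (-0.91) and with the M21 assignment and offset (-1.04); on the M21 assignment it ranged from -1.82 to -0.97 with a library left out. Tbx2 was -0.043 with the GC offset and 0.25 to 1.44 with a library left out. Tbx15 was -0.043 with the tag-sequence offset, -0.02 with the M21 assignment and offset, and 0.002 to 1.02 with a library left out.

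Signs also turned for genes and tags that were mostly uncalled. Tbx1 was -0.42 with the tag-sequence offset, -1.22 with the GC offset and -0.26 with the M21 assignment and offset; Ncor1 was 0.26 and 0.21 with the tag-sequence offset on either assignment, and Pbx2 was -0.05. Tbx2 site 5 was -0.43 without hindlimb replicate 2 and -0.51 with the GC offset, and reached 1.18 without forelimb replicate 1. Tbx15 site 1 was -0.016 without hindlimb replicate 2 and -0.009 with the tag-sequence offset, and reached 1.11 without hindlimb replicate 1; site 4 was -0.097 without forelimb replicate 2, -0.33 without hindlimb replicate 1, -0.097 with the tag-sequence offset and -0.086 with the M21 assignment and offset, and reached 0.97 without forelimb replicate 1; site 5 was 0.0 without hindlimb replicate 1 and -1.78 without hindlimb replicate 2. Tbx18 site 4 was 0.75 with the M21 assignment and offset. The cause of these changes was not tested.

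The labels do not say that replicate numbers mark shared animals, and deviations of same-numbered libraries correlated at -0.11. A replicate block gave 2151 genes, 435 tags and 128 usage calls; a crossed block gave 3170, 6024 and 969. The block changed the call of none of the 4 genes, with Tbx2 at 0.83, Tbx3 at -1.91, Tbx15 at 0.52 and Tbx18 at -2.29. It ended the calls of Tbx15 site 2 (2.43, adjusted p = 0.081) and Cdkn1a (1.59, adjusted p = 0.0519). With 2 libraries per limb type, 1 of them at 1829647 tags, single tags of 10 to 50 counts carry wide errors.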
